A study of Saccharomyces cerevisiae with 12 samples.

Results

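Transcripts of 45 genes of meiosis and spore formation were followed in budding yeast (Saccharomyces cerevisiae) in growing cultures. The genes were taken by their systematic identifiers from a fixed list and make up 45 of the 6713 targets in the files. They comprise 4 regulators (UME6, IME1, IME2 and NDT80), 21 early genes of recombination, synapsis and the first meiotic division, and 20 middle and late genes of spore building. The libraries came from 4 strains of S288c background with 3 libraries each. These were wild type S288c, RPD3 KO, which lacks the histone deacetylase gene RPD3, and the substitution strains RPD3 S418A and SWI3 S237A, in which a serine of Rpd3 or of the chromatin remodelling subunit Swi3 is replaced by alanine. According to the labels, every strain grew in synthetic defined medium and was collected at an optical density of 0.4. The protocol text that all samples share also mentions 20 mM caffeine for 4 h in a subset, but each library used here is labelled with the medium alone.

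Meiosis in yeast begins when a diploid cell starves, and it runs as a cascade of transcription. In growing cells the DNA-binding protein Ume6 sits on a site called URS1 upstream of early meiotic genes and recruits the Rpd3-Sin3 deacetylase and the Isw2 remodeller, which keep these genes off. Starvation induces Ime1, which turns Ume6-bound genes on, and the kinase Ime2 and the transcription factor Ndt80 then open the middle genes through a second site, the middle sporulation element (MSE), which the repressor Sum1 occupies during growth.

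Library totals ran from 18292564 to 26952041 estimated counts, of which the 45 genes took 0.0324 to 0.0380% in wild type and 0.0666 to 0.0700% in RPD3 KO. The RPD3 transcript had 0 counts in every RPD3 KO library and 2186 to 2567 in every other library, so this label held. The labels give neither mating type nor ploidy. Wild type libraries held 17731 to 21568 counts of MF(ALPHA)1, the alpha pheromone gene, and 3 to 5 counts of MFA1, an a pheromone gene. All 4 alpha-cell markers were lower in RPD3 KO, where their summed level was 788 to 831 CPM per library against 2339 to 3149 in wild type, and no marker was at 0 in all libraries of a strain. The summed level of the 6 a-cell markers was 17.3 to 19.1 CPM in RPD3 KO and 26.0 to 29.1 in wild type, but of the 4 a-cell markers tested MFA1 and STE2 were higher in RPD3 KO and BAR1 and STE6 lower. CPM are counts scaled to a common library size with TMM, a correction for composition. The part of mating type in the results below was not tested.

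Upstream sequences were read from the R64 genome on the strand of each gene, because the repressor site is what the early genes are known to share. The following 30-base stretches each hold a URS1 match, in capitals. The core searched was GCCGCC on both strands, so that a site on the opposite strand reads GGCGGC, and a run of 10 capitals marks the full consensus, as in SPO13.
MEI5 (chrXVI:321739-321768, minus strand): gaaaaagtattaGCCGCCcaaacttctatg
SAE3 (chrVIII:262645-262674, minus strand): gttctgcctaatGGCGGCtattctatttct
HOP2 (chrVII:435484-435513, plus strand): gattatgtccTCGGCGGCTAaattttccat
ZIP1 (chrIV:1032404-1032433, plus strand): taaaatacccTCGGCGGCTAaatttttaga
SPO13 (chrVIII:131940-131969, plus strand): tattgagaaaTAGCCGCCGAcaaaaaggaa
MER1 (chrXIV:250809-250838, plus strand): gatcgcatttTAGCCGCCGAcagtgttaat
MEK1 (chrXV:996628-996657, minus strand): cggctaaattTCGGCGGCTAtttcattcat
HOP1 (chrIX:226419-226448, plus strand): gtttttaacctgGGCGGCtaaattgtactt
REC114 (chrXIII:536103-536132, plus strand): cgttacaaggtgGGCGGCtaacttataaaa
REC8 (chrXVI:571545-571574, minus strand): gaacttgacttcGGCGGCaaaccaatatat
SPO22 (chrIX:226061-226090, minus strand): aatacaaactTCGGCGGCTAattgcaaata
UME6 (chrIV:867647-867676, minus strand): caggcggaaactGCCGCCgtcaaaaagaaa

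Within 500 bases before the start codon, the URS1 core was present in 14 of 21 early genes (66.7%), 1 of 20 middle and late genes (SMK1) and 2 of 4 regulators (UME6 and IME2). Among 6019 protein-coding genes of the reference, 574 (9.54%) held it in a window of the same length. The full 10-base consensus, which contains the core, was found in 6 early genes (MER1, MEK1, HOP2, ZIP1, SPO22 and SPO13), in none of the middle and late genes, and in 0.731% of all genes. A match describes the letters only and not whether a protein binds there.

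The middle sporulation element was searched as GNCNCAAA on both strands, which is a looser form than the element itself. The stretches below show it in capitals for NDT80 and for middle genes that went in opposite directions in RPD3 KO. The element on the opposite strand reads as TTTGTGTC or TTTGTGAC here.
NDT80 (chrVIII:356465-356494, plus strand): ttgccctccatTTTGTGTCacctatttaag
SMK1 (chrXVI:666190-666219, plus strand): ggcgccactaaTTTGTGACacttgaacagt
SSP1 (chrVIII:472636-472665, plus strand): ggcaaacaggcGACACAAAatcatgaagtc
SPS1 (chrIV:1487391-1487420, minus strand): aaaacgaaaaaGACACAAAttccatttttt
SPO21 (chrXV:145205-145234, plus strand): atttttttaatGTCACAAAaagaaaaatta
SPS4 (chrXV:903048-903077, minus strand): gattgacgcgcGCCACAAAaacgtatcatt
A match stood upstream of 14 of 20 middle and late genes (70.0%), 5 of 21 early genes (23.8%) and 1 of the 4 regulators (NDT80). Of all protein-coding genes, 20.7% had a match.

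In wild type the 45 genes were expressed at low levels. Per length, in TPM (transcript abundance scaled to a fixed total per library), the median early gene stood at 3.42 and the median middle or late gene at 1.69, against 30.9 for all 6327 targets with enough counts to be tested. Of those targets, 5.77% lay below the early median and 2.67% below the middle and late median. The highest was SMK1, a MAP kinase of spore wall assembly, with 23.2 ± 4.67 TPM (SD, n = 3 libraries, as for every SD here). It was followed by UME6 (16.5 ± 0.590 TPM), REC114 (15.9 ± 2.79 TPM) and GAS2 (12.8 ± 1.89 TPM). UME6 and REC114 differed by less than the SD of REC114. The lowest were CDA2, MEI5 and HOP2, at 0.127 ± 0.111, 0.221 ± 0.193 and 0.233 ± 0.159 TPM, which overlapped one another.

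The low-count filter kept 44 of the 45 genes. CDA2, a chitin deacetylase of the spore wall, was left out, with estimated counts of 4, 5 and 0 in wild type, 4, 1 and 0 in RPD3 S418A, 2, 3 and 3 in SWI3 S237A, and 12, 8 and 19 in RPD3 KO. All 3 RPD3 KO libraries were above all other libraries, and 3 counts correspond to 0.109 to 0.169 CPM. MEI5, SAE3 and HOP2 passed the filter although none exceeded 7 counts in a wild type library, and they were kept through the 3 RPD3 KO libraries alone, so a higher level there was close to fixed for them.

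**Figure D1:**
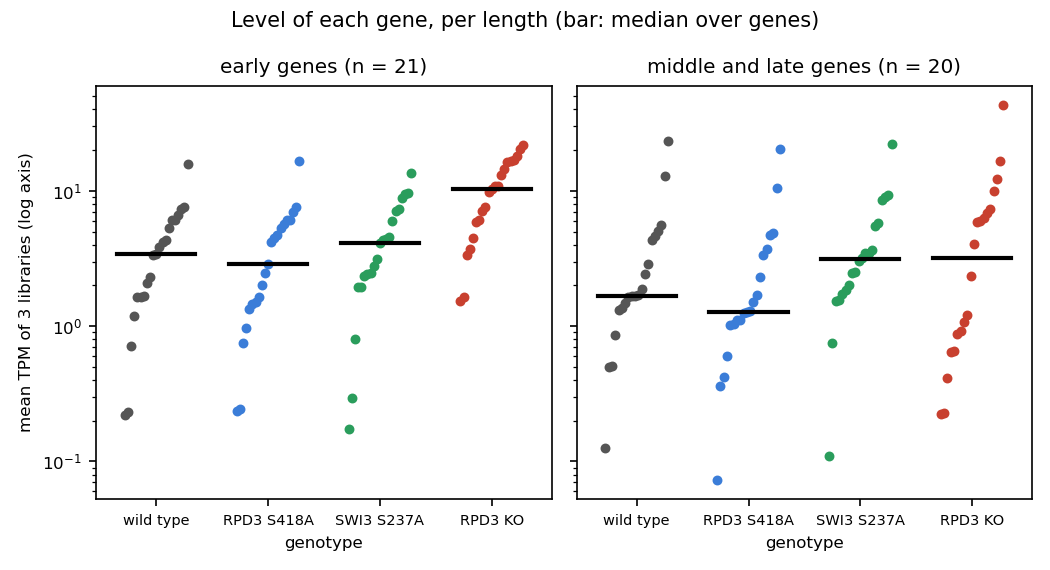
Mean TPM of 3 libraries (log axis) for each of the 21 early genes and each of the 20 middle and late genes in the 4 strains, with genes in rising order within a strain and a bar at the median over genes. The early median is 3.42 in wild type and 10.4 in RPD3 KO, while the middle and late genes spread from 0.223 to 43.3 in RPD3 KO around a median of 3.20.

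The regulators did not move together in RPD3 KO. UME6 rose and IME1 and NDT80 fell, while IME2 did not pass the test. Tests are edgeR's quasi-likelihood F test in 1 fit of the 12 libraries, with Benjamini-Hochberg adjustment over all 6327 targets and calls at an adjusted p under 0.05. Nothing in the labels tells whether replicates were grown separately, so p-values reflect the spread among these libraries only, which may be technical. In bulk RNA, fewer cells that express a gene and less RNA per cell cannot be told apart. Where libraries of different strains are said not to overlap, this describes the genes named and no more. The share of all targets without overlap was not counted.

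Estimated counts of UME6 (YDR207C), the URS1-binding repressor, were 1327, 1275 and 1152 in wild type replicates 1, 9 and 17 and 3383, 2502 and 2930 in RPD3 KO replicates 4, 12 and 20. They were 2433, 2376 and 2346 in SWI3 S237A replicates 2, 10 and 18, and 1178, 1211 and 767 in RPD3 S418A replicates 3, 11 and 19. The RPD3 KO and SWI3 S237A libraries all lay above all wild type libraries. UME6 was 2.27-fold higher in RPD3 KO (log2 1.18 ± 0.09 SE, adjusted p = 1.80e-07) and 1.59-fold higher in SWI3 S237A (log2 0.67 ± 0.09, edgeR adjusted p = 4.98e-05).

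IME1 (YJR094C) encodes the activator that starts meiosis. Its estimated counts were 191, 194 and 141 in wild type, 194, 159 and 133 in RPD3 S418A, 242, 171 and 171 in SWI3 S237A, and 41, 25 and 47 in RPD3 KO. All RPD3 KO libraries lay below all others, and the remaining strains overlapped. IME1 was 4.77-fold lower in RPD3 KO (log2 -2.25 ± 0.20, edgeR adjusted p = 5.23e-07), from 8.10 ± 0.826 CPM in wild type to 1.69 ± 0.468 CPM.

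NDT80 (YHR124W) encodes the activator of middle genes. It had 311, 283 and 312 counts in wild type, 293, 281 and 251 in RPD3 S418A, 431, 384 and 408 in SWI3 S237A, and 186, 144 and 124 in RPD3 KO, where it was 2.07-fold lower (log2 -1.05 ± 0.13, edgeR adjusted p = 1.05e-05). The RPD3 KO libraries again formed the bottom of the range without overlap. The kinase gene IME2 (YJL106W) had 344, 390 and 336 counts in wild type, 436, 384 and 374 in RPD3 S418A, 386, 346 and 355 in SWI3 S237A, and 324, 315 and 316 in RPD3 KO. Scaled to library size, IME2 was lower than wild type in every RPD3 KO library, with a log2 difference of -0.20 ± 0.09 that missed the threshold (edgeR adjusted p = 0.0750).

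Early and late genes differed in what happened without RPD3. Of the 21 early genes, 17 were higher and 1 lower in RPD3 KO than in wild type, and 3 did not pass the test. Among all tested targets 31.9% were called higher and 38.0% lower in the same comparison. Leaving out MEI5, SAE3 and HOP2, which entered the test only through the RPD3 KO libraries, 14 of 18 early genes were higher and 1 lower. Of the 19 middle and late genes tested, 6 were higher, 7 lower and 6 did not pass. The median log2 difference over all 21 early genes was 1.12, over all 20 middle and late genes 0.15, and over all tested targets -0.05, computed from mean CPM plus 0.5. The early median thus stood 0.97 above the middle and late median on the log2 scale. Summed over the early genes the level was 156 ± 14.4 CPM in wild type and 289 ± 7.19 CPM in RPD3 KO, and over the middle and late genes it was 121 ± 11.1 and 181 ± 9.28 CPM. The middle and late sum in RPD3 KO included 68.9 ± 5.5 CPM of SHC1 alone.

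**Figure D2:**
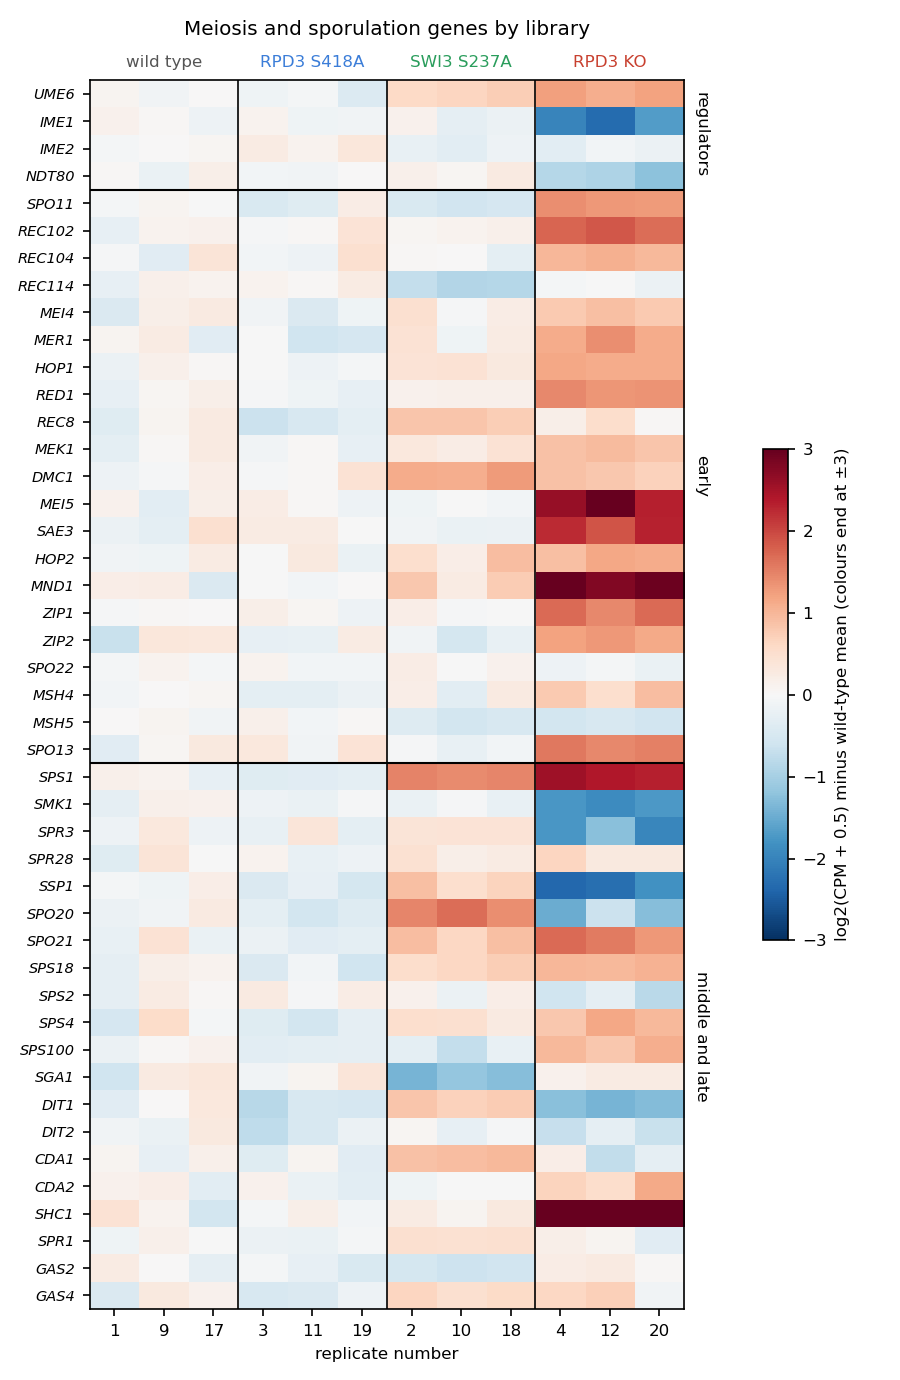
Colours give log2(CPM + 0.5) minus the wild type mean for each of the 45 genes (rows, by stage) in each of the 12 libraries (columns, by strain and replicate number), with colours ending at 3 in either direction. The RPD3 KO columns are red across most of the early rows and mixed across the middle and late rows, while no row of the RPD3 S418A columns passed the test against wild type.

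The strand exchange genes encode the meiotic recombinase Dmc1 and its accessory pairs Mei5-Sae3 and Hop2-Mnd1. DMC1 and MND1, which passed the low-count filter without the RPD3 KO libraries, rose in RPD3 KO. MEI5, SAE3 and HOP2 were also called higher, but since only the RPD3 KO libraries carried them through the filter, their calls describe these libraries and support no statement on the group. MEI5 (YPL121C) went from 4, 0 and 4 counts in wild type to 82, 98 and 57 in RPD3 KO, with 5, 3 and 1 in RPD3 S418A and 2, 3 and 2 in SWI3 S237A. SAE3 (YHR079C-A) had 1, 0 and 7 counts in wild type, 5, 5 and 2 in RPD3 S418A, 2, 1 and 1 in SWI3 S237A, and 59, 36 and 55 in RPD3 KO. For this pair the RPD3 KO libraries stood far above every other library, and the other strains were near the counting floor of 3 counts. The fitted difference was 27.7-fold for MEI5 (log2 4.79 ± 0.52, edgeR adjusted p = 3.64e-06) and 17.2-fold for SAE3 (log2 4.10 ± 0.58, edgeR adjusted p = 3.71e-05), and such folds are imprecise because few wild type counts stand behind them. The promoters of this pair carry the URS1 cores printed above.

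MND1 (YGL183C) had 28, 31 and 13 counts in wild type, 23, 21 and 19 in RPD3 S418A, 61, 35 and 52 in SWI3 S237A, and 339, 205 and 248 in RPD3 KO. HOP2, its partner, had 2, 2 and 5, 3, 6 and 1, 11, 6 and 17, and 17, 19 and 19 in the same order of strains. MND1 was 10.6-fold higher in RPD3 KO (log2 3.41 ± 0.26, edgeR adjusted p = 1.34e-07) and HOP2 5.75-fold higher (log2 2.52 ± 0.56, edgeR adjusted p = 0.00141), with no overlap with wild type for either gene. DMC1 rose less, from 6.44 ± 0.913 CPM in wild type to 11.4 ± 0.768 CPM (log2 0.83 ± 0.15, edgeR adjusted p = 2.43e-04). MND1 was the member of the group without a URS1 core in its window.

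**Figure D3:**
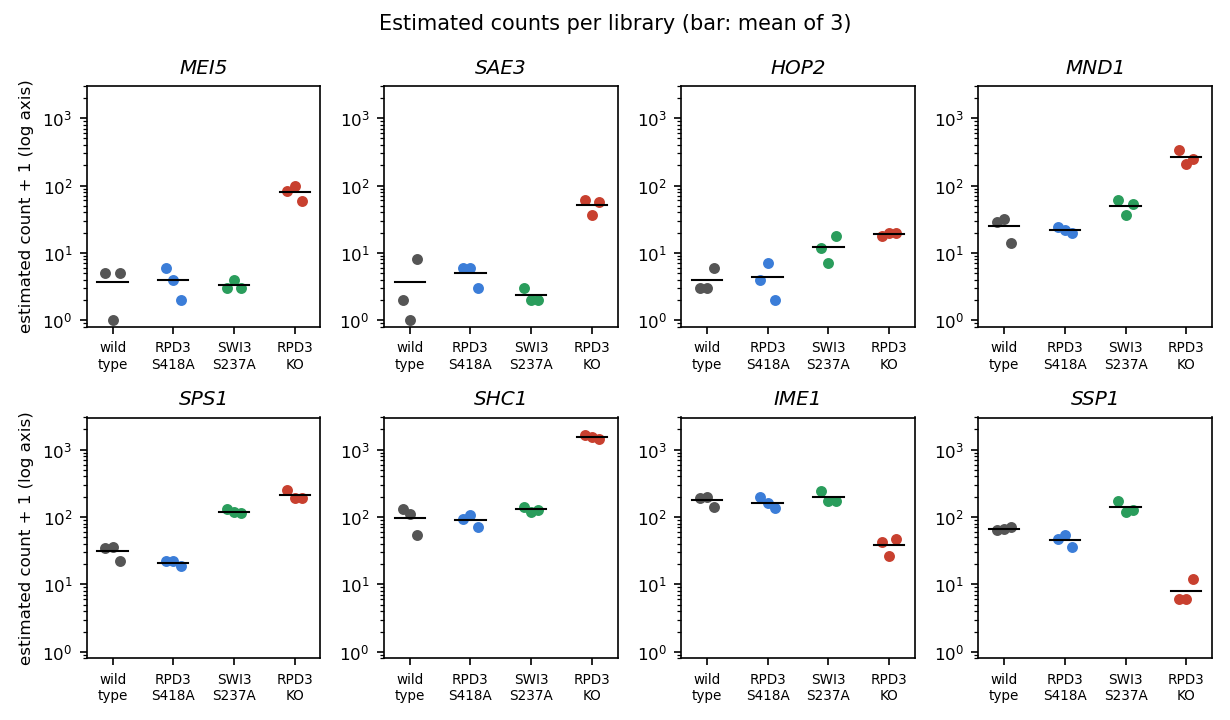
Estimated counts plus 1 (log axis) in each library for 8 genes, with a bar at the mean of 3 libraries per strain. MEI5, SAE3, MND1, SPS1 and SHC1 are highest in RPD3 KO, IME1 and SSP1 lowest there, and HOP2 shows overlap between SWI3 S237A (6 to 17 counts) and RPD3 S418A (1 to 6 counts).

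Of the 6 genes of DNA break formation, 5 were higher in RPD3 KO. REC102, which encodes a partner of the break enzyme, had 61, 88 and 74 counts in wild type, 74, 76 and 84 in RPD3 S418A, 99, 97 and 92 in SWI3 S237A, and 314, 279 and 260 in RPD3 KO (3.72-fold higher, log2 1.89 ± 0.16, edgeR adjusted p = 4.03e-07). SPO11, the break enzyme itself, was 2.67-fold higher, from 91, 109 and 85 counts to 304, 233 and 247. The splicing activator gene MER1 and the genes REC104 and MEI4 were 2.50-, 2.20- and 1.89-fold higher, each with all RPD3 KO libraries above all wild type libraries. The exception was REC114, whose product works with Mei4. It had 443, 629 and 508 counts in wild type and 575, 482 and 466 in RPD3 KO, which overlapped (log2 -0.09 ± 0.11, edgeR adjusted p = 0.444). REC114 was the highest early gene in wild type by TPM, and its promoter holds a URS1 core.

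The chromosome axis genes HOP1, RED1 and MEK1 were higher in RPD3 KO, by 2.22-, 2.61- and 2.00-fold. HOP1 had 253, 346 and 269 counts in wild type and 756, 591 and 633 in RPD3 KO. RED1, whose product organises the axis with Hop1, had 285, 388 and 351 and then 1073, 806 and 887. Neither gene overlapped between the strains. REC8, the meiotic cohesin subunit, had 40, 64 and 62 counts in wild type and 72, 78 and 56 in RPD3 KO, which overlapped after scaling (log2 0.27 ± 0.22, edgeR adjusted p = 0.293).

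The 5 synapsis genes went different ways. ZIP1, the central component of the synaptonemal complex, had 334, 378 and 312 counts in wild type, 395, 356 and 250 in RPD3 S418A, 505, 401 and 378 in SWI3 S237A, and 1291, 881 and 1134 in RPD3 KO. It was 3.12-fold higher in RPD3 KO (log2 1.64 ± 0.11, edgeR adjusted p = 3.31e-08). ZIP2 and MSH4, which act on crossover intermediates, were 2.34- and 1.75-fold higher. MSH5, the partner of MSH4, was the early gene that fell, from 496, 566 and 416 counts to 377, 327 and 326 (1.47-fold lower, log2 -0.56 ± 0.09, edgeR adjusted p = 9.33e-05), with no overlap after scaling. SPO22, which acts with Zip2, had 462, 567 and 419 counts in wild type and 496, 431 and 416 in RPD3 KO, each lower than wild type once scaled, but it did not pass the test (log2 -0.14 ± 0.09, edgeR adjusted p = 0.172). SPO13, which keeps sister kinetochores together in the first meiotic division, was 3.06-fold higher, from 60, 89 and 90 counts to 297, 216 and 246.

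SPO22 and HOP1 lie back to back with 647 bases between their start codons, so their upstream windows overlap. A URS1 core at chrIX:226431-226436 is inside both windows, 171 bases before HOP1 and 482 bases before SPO22, and SPO22 has a full consensus of its own 126 bases before its start codon. HOP1 rose in RPD3 KO and SPO22 did not pass the test. The stretches from 250 to 51 bases before the start codon are shown for this pair and for MEI5, the early gene with the largest fitted rise, with the URS1 matches in capitals.
HOP1 (chrIX:226352-226551, plus strand): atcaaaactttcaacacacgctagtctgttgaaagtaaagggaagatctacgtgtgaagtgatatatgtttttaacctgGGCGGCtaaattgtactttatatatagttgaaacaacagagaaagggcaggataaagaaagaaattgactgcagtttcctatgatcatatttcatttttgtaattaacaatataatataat
SPO22 (chrIX:226005-226204, minus strand): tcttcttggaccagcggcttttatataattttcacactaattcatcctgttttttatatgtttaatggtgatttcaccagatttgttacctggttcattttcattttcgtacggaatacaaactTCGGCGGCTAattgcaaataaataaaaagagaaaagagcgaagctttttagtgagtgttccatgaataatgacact
MEI5 (chrXVI:321681-321880, minus strand): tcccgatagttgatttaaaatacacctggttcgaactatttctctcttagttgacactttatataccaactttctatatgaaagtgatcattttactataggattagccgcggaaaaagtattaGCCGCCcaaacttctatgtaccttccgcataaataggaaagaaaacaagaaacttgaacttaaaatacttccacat

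Within each role of the middle and late genes, RPD3 KO held genes that were higher and genes that were lower. Over the 19 tested, 6 were higher and 7 lower, near the shares of all targets (31.9% higher and 38.0% lower). The mix of directions is therefore not particular to these genes. Both kinases changed, in opposite directions. SPS1 (YDR523C), a kinase of prospore membrane closure, had 34, 35 and 21 counts in wild type, 21, 21 and 18 in RPD3 S418A, 129, 116 and 112 in SWI3 S237A, and 255, 189 and 191 in RPD3 KO (6.84-fold higher, log2 2.77 ± 0.17, edgeR adjusted p = 1.74e-08). SMK1 had 624, 911 and 751 counts in wild type, 701, 653 and 608 in RPD3 S418A, 833, 895 and 714 in SWI3 S237A, and 249, 184 and 223 in RPD3 KO (3.59-fold lower, log2 -1.84 ± 0.12, edgeR adjusted p = 3.39e-08). For each kinase the RPD3 KO and wild type libraries did not overlap.

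Of the 6 genes of the septins and the prospore membrane, 2 rose in RPD3 KO, 3 fell and 1 did not pass. SSP1 (YHR184W), a coat protein at the leading edge of the growing membrane, had 63, 65 and 70 counts in wild type, 47, 54 and 35 in RPD3 S418A, 170, 119 and 125 in SWI3 S237A, and 5, 5 and 11 in RPD3 KO (9.58-fold lower, log2 -3.26 ± 0.30, edgeR adjusted p = 7.53e-07). The septin gene SPR3 had 37, 60 and 34 counts in wild type and 6, 11 and 3 in RPD3 KO (6.54-fold lower, log2 -2.71 ± 0.40, edgeR adjusted p = 5.25e-05). SPO20, which encodes a membrane fusion protein, had 43, 49 and 56 and then 12, 26 and 14 (2.90-fold lower, log2 -1.53 ± 0.30, edgeR adjusted p = 6.13e-04). In all 3 genes the wild type and RPD3 KO libraries were separate. SPO21, a component of the meiotic spindle pole body, went the other way, from 49, 90 and 45 counts to 245, 182 and 162 (3.13-fold higher, log2 1.64 ± 0.21, edgeR adjusted p = 1.59e-05). SPS18 was 2.10-fold higher, from 83.7, 128 and 101 counts to 250, 200 and 225. The septin gene SPR28 did not pass, with 8, 23 and 12 counts in wild type and 31, 18 and 19 in RPD3 KO.

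The spore wall group held the largest rise among the middle and late genes. SHC1 (YER096W), an activator of chitin synthase during sporulation, had 129, 109 and 54 counts in wild type, 91, 105 and 71 in RPD3 S418A, 142, 118 and 128 in SWI3 S237A, and 1623, 1522 and 1426 in RPD3 KO. It was 15.4-fold higher in RPD3 KO (log2 3.94 ± 0.19, edgeR adjusted p = 3.28e-09) and, at 43.3 ± 2.13 TPM, stood beside UME6 (43.4 ± 3.55 TPM) as the highest of the 45 genes there. Its upstream window held neither motif. SPS4, a gene named for its expression in sporulation, had 22, 63 and 31 counts in wild type and 81, 87 and 81 in RPD3 KO, and SPS100, a spore wall protein gene, had 93, 119 and 107 and then 252, 181 and 238. This pair was 2.12- and 2.03-fold higher, without overlap.

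DIT1, the first enzyme of dityrosine synthesis in the outer spore wall, had 79, 112 and 119 counts in wild type and 42, 30 and 35 in RPD3 KO (3.00-fold lower, log2 -1.59 ± 0.21, edgeR adjusted p = 1.83e-05). DIT2, the next enzyme, was 1.59-fold lower (log2 -0.67 ± 0.25, edgeR adjusted p = 0.0290). SPS2 had 32, 55 and 38 counts in wild type and 27, 30 and 19 in RPD3 KO, which overlapped after scaling (1.68-fold lower, log2 -0.74 ± 0.27, edgeR adjusted p = 0.0238). The calls of DIT2 and SPS2 were lost when scaling used total counts alone, when only the 6 libraries compared were fitted, without RPD3 KO replicate 4 or 20, and without wild type replicate 17 (DIT2) or 9 (SPS2), with adjusted p-values of 0.0651 to 0.126. The chitin deacetylase gene CDA1, the glucan-modifying genes GAS2, GAS4 and SPR1, and the glucoamylase gene SGA1 did not pass the test, with log2 differences of -0.43 to 0.49.

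**Figure D4:**
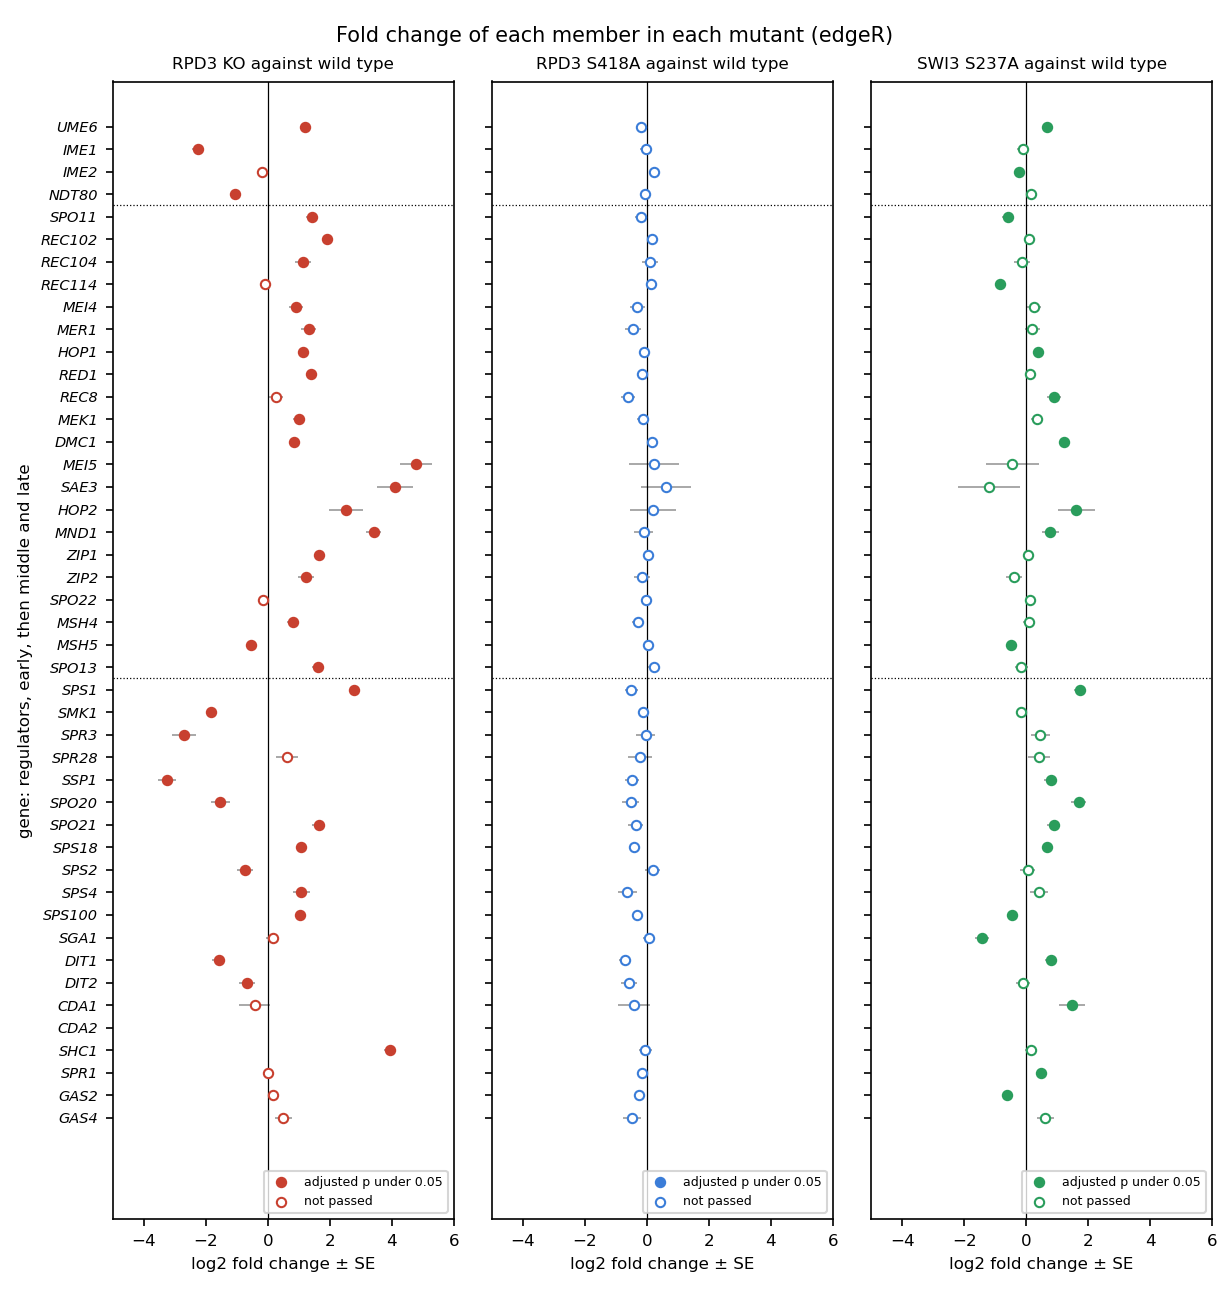
Fitted log2 fold change with its SE for each of the 44 tested genes in each mutant against wild type, with filled points at an adjusted p under 0.05 and open points otherwise. In RPD3 KO the early genes lie mostly to the right of 0 (17 higher, 1 lower) and the middle and late genes on both sides (6 higher, 7 lower), RPD3 S418A has no filled point, and SWI3 S237A has 14 higher and 7 lower.

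Genes that rose in RPD3 KO were found with and without each motif in their window. Of the 14 early genes with a URS1 core 11 were higher in RPD3 KO, with a median fitted log2 difference of 1.14. Of the 7 without a core 6 were higher and 1 (MSH5) lower, with a median of 1.38. The 11 include MEI5, SAE3 and HOP2, as does the median of 1.14. Only the RPD3 KO libraries carried these genes through the filter, so their calls were close to fixed and support no statement on the motif. The genes with a core that did not pass were REC114, REC8 and SPO22, whose sites are printed above. Of the 13 tested middle and late genes with an MSE match, 4 were higher and 5 lower, and of the 6 without a match 2 were higher and 2 lower. Of 1167 tested targets outside the 45 genes with an MSE match, 31.4% were higher and 40.1% lower, close to the shares among the 13. Among targets outside the 45 genes, 20 of 37 with the full URS1 consensus (54.1%) were higher and 5 (13.5%) lower, while 34.1% of those with the core and 31.5% of those without it were higher.

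**Figure D5:**
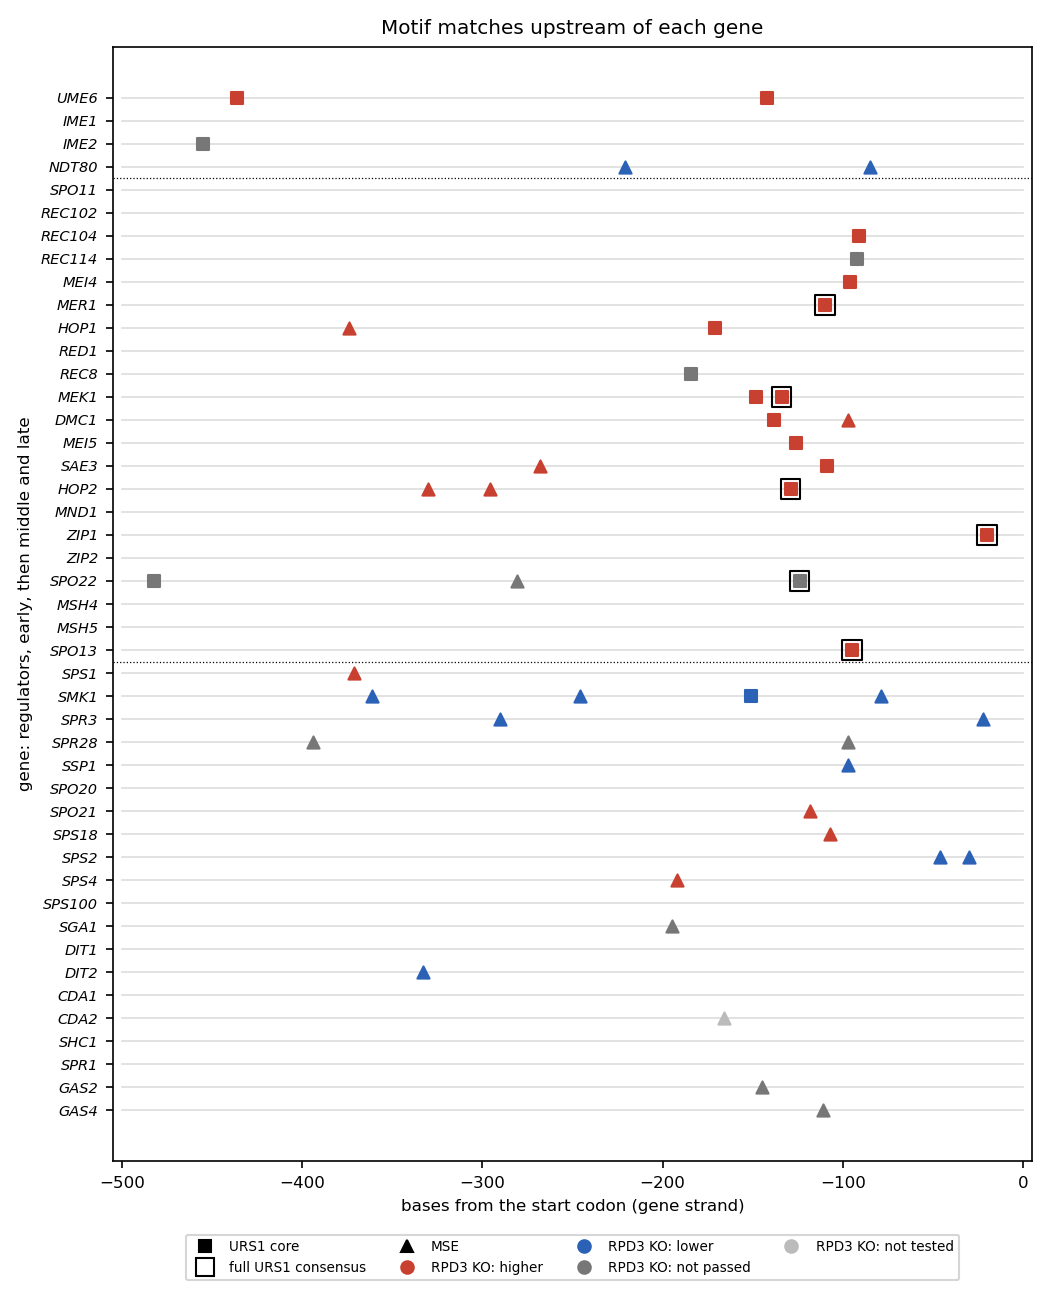
Position of each URS1 core (squares, boxed where the full consensus is present) and each MSE match (triangles) in the 500 bases before the start codon, 1 row per gene, coloured by the call in RPD3 KO against wild type. The URS1 squares fall almost entirely in early rows, where 14 of 21 genes hold a core, and the triangles mostly in middle and late rows, where 14 of 20 hold a match, in red, blue and grey alike.

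In RPD3 S418A none of the 44 tested genes passed the test against wild type, where 0.822% of all targets were called higher and 1.20% lower. Without adjustment, 6 genes had p under 0.05 in edgeR: REC8, SPS1, SPS18, DIT1 and DIT2 on the lower side and IME2 on the higher side. The share of all targets past this unadjusted threshold was not counted, so the 6 cannot be read as a lean of the group. DESeq2 called 1 of the 44, DIT1. DIT1 had 79, 112 and 119 counts in wild type and 54, 70 and 57 in RPD3 S418A, where every library was below wild type (log2 -0.70 ± 0.20, edgeR adjusted p = 0.0914). DESeq2 gave it an adjusted p of 0.0328, and without wild type replicate 1 the edgeR adjusted p was 0.0185. The median log2 difference was -0.02 over the early genes, -0.28 over the middle and late genes and -0.00 over all tested targets. The summed level of the early genes was 154 ± 7.46 CPM against 156 ± 14.4 in wild type, and of the middle and late genes 104 ± 1.40 CPM against 121 ± 11.1.

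Set against RPD3 KO, RPD3 S418A had 1 early gene higher (MSH5), 18 lower and 2 that did not pass, where 39.4% of all targets were higher and 33.3% lower. This comparison shares its RPD3 KO libraries with RPD3 KO against wild type and its RPD3 S418A libraries with RPD3 S418A against wild type. The 18 included REC8, which had 32, 36 and 35 counts in RPD3 S418A and 72, 78 and 56 in RPD3 KO (log2 -0.88 ± 0.23, edgeR adjusted p = 0.00435). The largest differences were those of MEI5 (log2 -4.57 ± 0.51), MND1 (-3.51 ± 0.26), SAE3 (-3.49 ± 0.54) and HOP2 (-2.32 ± 0.55), whose counts are given above. MEI5, SAE3 and HOP2 are among the 18 but passed the low-count filter only through the RPD3 KO libraries. A lower level in RPD3 S418A was therefore close to fixed for them, and their calls support no statement on the early genes. Of the middle and late genes, 6 were higher in RPD3 S418A, led by SSP1 (log2 2.78 ± 0.31) and SPR3 (2.67 ± 0.40), and 8 were lower, led by SHC1 (-3.99 ± 0.19) and SPS1 (-3.27 ± 0.18). All 4 regulators passed: IME1, NDT80 and IME2 were higher in RPD3 S418A, by 4.64-, 1.98- and 1.35-fold, and UME6 was lower by 2.59-fold. Once scaled, IME2 stood at 14.4 ± 1.25 CPM in RPD3 KO, 16.6 ± 0.634 in wild type and 19.5 ± 1.68 in RPD3 S418A.

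In SWI3 S237A the early genes were mixed and the middle and late genes more often higher than lower. Of the 21 early genes, 5 rose, 3 fell and 13 did not pass, where 28.7% of all targets were higher and 31.3% lower. The median log2 difference was 0.10 over the early genes, 0.37 over the middle and late genes and -0.02 over all tested targets. DMC1, the recombinase gene, had 123, 145 and 146 counts in wild type and 394, 367 and 391 in SWI3 S237A. It was 2.32-fold above wild type (log2 1.21 ± 0.14, edgeR adjusted p = 1.55e-05). REC8 had 40, 64 and 62 counts and then 135, 128 and 110 (1.86-fold higher, log2 0.90 ± 0.22, edgeR adjusted p = 0.00332), and HOP1 253, 346 and 269 and then 493, 472 and 398 (1.31-fold higher, log2 0.39 ± 0.09, edgeR adjusted p = 0.00274). In these 3 genes all SWI3 S237A libraries lay above wild type after scaling.

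The rises of HOP2 and MND1 in SWI3 S237A rested on few counts. HOP2 had 2, 2 and 5 counts in wild type and 11, 6 and 17 in SWI3 S237A, and the strains overlapped once scaled (log2 1.62 ± 0.60, edgeR adjusted p = 0.0334). MND1 had a log2 difference of 0.79 ± 0.27 (edgeR adjusted p = 0.0249). HOP2 lost its call without wild type replicate 1 or 9 or SWI3 S237A replicate 2 or 18. MND1 lost it without wild type replicate 17 or SWI3 S237A replicate 2 or 18, and in a fit of only the 6 libraries. The adjusted p-values were then 0.0534 to 0.153. MEI5 and SAE3 of the same group stayed at 1 to 3 counts per SWI3 S237A library, at or below the floor, and did not pass.

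The early genes that fell in SWI3 S237A were REC114, SPO11 and MSH5. REC114 went from 443, 629 and 508 counts to 402, 335 and 315 in the larger SWI3 S237A libraries (1.80-fold lower, log2 -0.85 ± 0.11, edgeR adjusted p = 2.48e-05). SPO11 went from 91, 109 and 85 counts to 85, 72 and 71 (log2 -0.58 ± 0.18, edgeR adjusted p = 0.0148), and MSH5 from 496, 566 and 416 to 477, 397 and 391 (1.40-fold lower, log2 -0.48 ± 0.09, edgeR adjusted p = 4.05e-04). After scaling none of the 3 overlapped with wild type.

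Among the 19 tested middle and late genes, 8 rose in SWI3 S237A, 3 fell and 8 did not pass. Of all targets, 28.7% were higher and 31.3% lower. SPS1 was 3.32-fold higher (log2 1.73 ± 0.17, edgeR adjusted p = 2.66e-06), with the counts given above. SPO20 had 43, 49 and 56 counts in wild type and 197, 220 and 163 in SWI3 S237A (3.24-fold higher, log2 1.70 ± 0.25, edgeR adjusted p = 9.69e-05). CDA1 had 12, 8 and 12 counts and then 37, 36 and 35 (2.78-fold higher, log2 1.48 ± 0.43, edgeR adjusted p = 0.00968). SPO21, DIT1, SSP1, SPS18 and SPR1 were 1.85-, 1.75-, 1.73-, 1.60- and 1.41-fold higher, and for all 8 genes no SWI3 S237A library overlapped with wild type. Without the share of all targets that show no overlap, this cannot be read as a trait of the group. The largest fall was that of SGA1, which releases glucose from glycogen, from 152, 306 and 269 counts to 105, 118 and 100 (2.70-fold lower, log2 -1.43 ± 0.22, edgeR adjusted p = 1.18e-04). GAS2 was 1.52-fold lower and SPS100 1.37-fold lower. The call of SPS100 (log2 -0.45 ± 0.17, edgeR adjusted p = 0.0346) was lost with total counts as scaling, in a fit of the 6 libraries, and without wild type replicate 9 or 17 or SWI3 S237A replicate 10, with adjusted p-values of 0.0754 to 0.139.

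The regulators in SWI3 S237A were UME6, which rose as given above, IME2, which was lower in all 3 libraries (log2 -0.24 ± 0.09, edgeR adjusted p = 0.0426), and IME1 and NDT80, which did not pass. The IME2 call was lost under other scalings, in DESeq2 and without any of 5 single libraries (wild type replicate 9 or 17, SWI3 S237A replicate 2, 10 or 18), with adjusted p-values of 0.0503 to 0.134.

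Side by side, the calls in RPD3 KO and SWI3 S237A, which are measured against the same wild type libraries, coincided for some genes and opposed each other for others. UME6, HOP1, DMC1, HOP2, MND1, SPS1, SPO21 and SPS18 were called higher in both, and MSH5 was called lower in both. SSP1, SPO20 and DIT1 fell in RPD3 KO and rose in SWI3 S237A, with log2 differences of -3.26 and 0.79, -1.53 and 1.70, and -1.59 and 0.80. SPO11 and SPS100 rose in RPD3 KO and fell in SWI3 S237A. Of the 17 early genes higher in RPD3 KO, 12 did not pass in SWI3 S237A, among them ZIP1 and SPO13. Of all 6327 targets tested, 2528 did not pass there. The 12 also include MEI5 and SAE3, which were near the floor in SWI3 S237A. MEI5, SAE3 and HOP2 passed the low-count filter only through the RPD3 KO libraries, so their place in these lists tells little. How many of all targets were called alike or opposite in both strains was not counted.

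In the authors' deposited table for RPD3 KO against wild type, an adjusted p under 0.05 went with a higher level for 17 early and 7 middle and late genes, and with a lower level for 1 and 7. The authors' deposited table gave MEI5 a log2 fold change of 4.89, IME1 of -2.21 and SHC1 of 4.00. CDA2, which was too low for the filter above, has a log2 fold change of 2.16 with an adjusted p of 0.0207 in the authors' deposited table. In the authors' deposited table for RPD3 S418A none of the 45 genes was past that threshold, and in the authors' deposited table for SWI3 S237A 4 early genes were higher and 3 lower, and 9 middle and late genes higher and 3 lower.

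Some counts could mix transcripts. ZIP2 overlaps the noncoding gene RME3 and SPS100 overlaps SUT169 in the reference, with 89.9 and 96.3% of their 31-base words shared with those genes, and no source used here gives the strand setting of the counting, so reads of either partner cannot be told apart. The other 43 genes shared no 31-base word with another reference gene, but 705 of the targets were not matched in the reference and not searched. The counts of SPS18 and DIT2 are not whole in the files, as happens when reads are divided between targets. In 8 of the genes with introns (REC102, REC114, MEI4, DMC1, SAE3, HOP2, MND1 and SPO22) the target spans the intron, so spliced and unspliced RNA are not separated.

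Other genes of the same pathways, from lists drawn up beside the 45 genes, were read in the same comparison of RPD3 KO with wild type, where 31.9% of all targets were higher and 38.0% lower. Of 10 further early genes 9 were tested, of which 6 were higher and 1 lower. ECM11, a synaptonemal complex protein gene, had 8, 14 and 8 counts in wild type and 372, 286 and 306 in RPD3 KO (log2 4.95, edgeR adjusted p = 1.14e-09). HFM1, a meiotic helicase gene, had 557, 691 and 514 and then 274, 227 and 239 (log2 -1.29, edgeR adjusted p = 1.68e-08). Of 27 further middle and late genes 25 were tested, and 6 were higher and 12 lower, shares not far from those of all targets. Among these SPO19 was higher (2, 4 and 2 counts, then 77, 72 and 64), while LDS2 and DTR1, the latter a transporter gene of the prospore membrane, were lower (log2 -2.21 and -2.95). Which libraries carried the genes of these lists through the low-count filter was not checked. For genes with few wild type counts, such as SPO19, a higher level in RPD3 KO may have been close to fixed. Their calls support no statement on the lists.

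Of the 12 genes of the corepressors that Ume6 recruits 5 were higher and 3 lower, and of 11 regulators of entry into meiosis 2 were higher and 5 lower. On lists this short, such counts are close to the shares of all targets. The lower regulators of entry included RME1, a repressor of IME1 (log2 -0.67, edgeR adjusted p = 4.82e-05), and RIM11, a kinase that acts on Ime1 and Ume6 (log2 -1.05, edgeR adjusted p = 6.11e-08). All 3 genes of the middle-gene repressor list were lower, among them SUM1 (log2 -0.21) and its partner RFM1 (log2 -0.44). The calls of these lists were not followed under other scalings. With total counts alone, the median fitted log2 difference over all targets in RPD3 KO moved from -0.0551 to 0.122. Small differences such as that of SUM1 may therefore depend on the scaling. In RPD3 S418A no gene of these 5 lists passed the test against wild type. In SWI3 S237A, where 28.7% of all targets were higher and 31.3% lower, the 9 further early genes tested had 1 higher and 3 lower. The 25 further middle and late genes tested had 3 higher and 7 lower, against 8 higher and 3 lower among the 19 tested above. The corepressor list had 0 higher and 6 lower of 12, and the regulators of entry 3 higher and 4 lower of 11. The 3 middle-gene repressors had 1 higher and 1 lower.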

How the data were processed

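RNA of 12 libraries was sequenced after stranded library preparation. Per the submitters' processing notes, reads were trimmed with Trimmomatic 0.36 and quantified with kallisto 0.44.0 on the R64 build. The deposited files give an estimated count and TPM per target, with target lengths, per the file headers. The authors' deposited comparison tables give log2 fold changes with errors, a Wald statistic (a score), p-values, and baseMean, a mean normalised signal; the submitters' processing notes list DESeq2.

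Estimated counts were rounded, filtered with filterByExpr and fitted in edgeR 4.0.16 (R 4.3.3, limma 3.58.1) by a robust quasi-likelihood model of all 12 libraries with TMM scaling. SEs were derived from the test statistic and the fold change. DESeq2 1.42.0, other scalings, no low-count filter, a fit of only the groups compared, a replicate block by sets of consecutive library numbers (added after seeing the data), and leaving out each library were alternatives. The scripts were tested on simulated data. Upstream windows of 500 bases were read from the RefSeq R64 genome, where all 45 genes matched. For each stage and comparison, up to 6 called genes with the largest changes in each direction are named with every library's counts, beside the regulators. The floor (3 counts) covers counting error only, while the SEs and SDs also hold the spread between libraries. The genes and lists were chosen with earlier results of these data known.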

Additional observations from a re-analysis of the deposited data

How the results depend on the processing

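The number of early genes higher in RPD3 KO was 17 under every alternative run. The 17 include MEI5, SAE3 and HOP2, whose calls were close to fixed by the low-count filter and add no support. Without these genes, 14 of 18 were higher in the main fit. The middle and late genes there, 6 higher and 7 lower, were 7 and 5 with total counts alone. They ranged from 6 to 8 higher and 5 to 7 lower when single libraries were left out. Some genes gained a call in RPD3 KO. SPR28 was higher without wild type replicate 9, and GAS4 without RPD3 KO replicate 20. GAS2 was higher with total counts or without wild type replicate 1, and IME2 lower without RPD3 KO replicate 12. In RPD3 S418A the count of middle and late genes that were lower, 0 in edgeR, was 1 in DESeq2 and ranged from 0 to 1 when single libraries were left out. In SWI3 S237A the count of early genes that were higher, 5, was 3 in a fit of only the 6 libraries compared and ranged from 3 to 5 when single libraries were left out. Differences near 0 that had not been called changed sign (log2 values). With total counts alone as scaling, REC114 was 0.0823, SPO22 0.0341 and SPR1 0.169 in RPD3 KO. SPR1 was 0.0411 with RLE scaling, 0.0403 in DESeq2 and 0.0425 in a fit of the 6 libraries. When single libraries were left out, SPR1 ranged from -0.121 to 0.144 and SGA1 from -0.0944 to 0.318 in RPD3 KO, IME1 from -0.125 to 0.0250 and NDT80 from -0.170 to 0.0272 in RPD3 S418A. The cause was not tested. Scaling by total counts moved the split of all targets in RPD3 KO from 2018 higher and 2407 lower to 2650 and 1749, with a median of 0.12. For RPD3 S418A against RPD3 KO it moved from 2496 and 2106 to 1937 and 2607. The strains share no replicate number, but their numbers fall into 3 sets of consecutive numbers, and a replicate block by set was added after seeing the data. It left each early, middle and late count in the 4 comparisons as it was, with 17 early genes higher in RPD3 KO, and changed no call of a gene named here. Libraries of the same set did not deviate together throughout (r across genes from -0.13 to 0.35 over 18 pairs, with 7 of 12 libraries nearest their own set), and the labels do not say that a set marks a batch. Genes with few counts, such as HOP2, MEI5, SAE3 and CDA2, limit the precision of their folds.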
